A study of Mus musculus with 8 samples.

Results

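Inflammatory chemokines and genes of the NF-kB response were examined in mouse 3T3-L1 adipocytes given palmitate, A66 or both. The group was defined as a list of 9 named genes. It holds the chemokines Ccl2, Ccl7, Cxcl1 and Cxcl5, the cytokine Il6, the growth factor Csf1, the acute-phase gene Saa3 and the feedback inhibitors Nfkbia and Tnfaip3. All 9 were found among the 43629 genes of the count table. A total of 14587 genes passed the filter on low counts, and 8 of the 9 were among them, Saa3 being the exception.

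3T3-L1 is a mouse pre-adipocyte line that forms fat cells in culture, here after induction with insulin, dexamethasone, isobutylmethylxanthine and rosiglitazone, which all groups received. On day 8 of differentiation the cultures were left untreated, or were given 2 μM A66, 0.5 mM palmitate bound to bovine serum albumin, or palmitate plus A66 (the combination), for 24 h, with 2 libraries in each of the 4 groups. A66 is an inhibitor of p110α, a catalytic subunit of the PI3K that acts downstream of the insulin receptor, and palmitate is a saturated fatty acid. The methods of the study describe a lower dose of A66 with DMSO as vehicle, whereas the sample labels name the control as untreated. No library received albumin without palmitate, so the fatty acid and its carrier cannot be told apart.

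Library totals ranged from 42247091 to 57529803 counts, and 3 counts, used as the floor of detection, correspond to 0.0521 to 0.0710 CPM, counts scaled to a common library total. Floors cover counting error only. The p-values rest on the spread between libraries within groups, estimated in 1 fit over all 4 groups. The methods call the cultures with A66 or vehicle biological repeats and do not describe the palmitate groups. The 12 adipocyte markers all had counts, with a summed level of 8080 to 9965 CPM per library. Of 14 macrophage markers, Adgre1, Fcgr1, C1qa and C1qb were at 0 counts in all 8 libraries, and Ptprc had 1 count in 1 library. The summed level of the macrophage list, nearly all of it from Cd14, Cd68 and Lyz2, was 13.5 to 14.4 CPM in the untreated libraries, 14.4 to 16.0 under A66, 15.5 to 16.7 under palmitate and 18.1 to 19.1 under the combination. Of 11 preadipocyte markers in the table, Dlk1 and Dpp4 were at 0 in all libraries, and the summed level was 365 to 394 CPM.

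NF-kB is a family of transcription factors that inhibitor proteins hold in the cytoplasm. Signals from Toll-like receptors and from the receptors of TNF and interleukin-1 activate the IKK kinase complex, which marks the inhibitors for degradation, so that NF-kB enters the nucleus and induces chemokines, cytokines and acute-phase genes. Among its targets are its own inhibitors Nfkbia, which encodes IκBα, and Tnfaip3, which encodes the ubiquitin-editing enzyme A20. Saturated fatty acids are widely studied as triggers of this response in adipocytes and macrophages, and chemokines released by adipose tissue attract monocytes and neutrophils in obesity.

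Promoter sequence was available from RefSeq (GRCm38.p6) for 6 of the genes as windows of 300 bases, 250 before and 50 after the transcription start. These 6 genes had 7 windows, as Tnfaip3 had 2. The NF-kB consensus of 10 bases, searched on both strands, was found for 5 of the 6, namely Cxcl1, Il6, Nfkbia, Tnfaip3 and Csf1. In Tnfaip3 only the first window held it. Among all 32851 windows of that length it was found in 2779 (8.46%). The windows of Cxcl1, Il6 and Nfkbia are shown because they stand for a chemokine, a cytokine and an inhibitor that carry the same element next to their start. They are written 5′ to 3′ on the strand of the gene, with matches in capitals, and lie at chr5:90890995-90891294 (plus strand), chr5:30012864-30013163 (plus strand) and chr12:55492598-55492897 (minus strand).
Cxcl1: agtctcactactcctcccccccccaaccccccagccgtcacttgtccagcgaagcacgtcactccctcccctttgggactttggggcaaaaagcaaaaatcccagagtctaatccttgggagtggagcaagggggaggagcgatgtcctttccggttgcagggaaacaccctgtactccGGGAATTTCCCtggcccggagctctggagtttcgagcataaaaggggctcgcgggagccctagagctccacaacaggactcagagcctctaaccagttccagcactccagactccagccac
Il6: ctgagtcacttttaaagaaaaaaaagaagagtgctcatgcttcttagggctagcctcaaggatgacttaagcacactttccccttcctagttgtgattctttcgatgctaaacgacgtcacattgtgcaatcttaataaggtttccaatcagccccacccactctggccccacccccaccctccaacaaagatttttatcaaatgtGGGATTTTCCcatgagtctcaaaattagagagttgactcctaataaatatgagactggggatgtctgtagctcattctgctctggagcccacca
Nfkbia: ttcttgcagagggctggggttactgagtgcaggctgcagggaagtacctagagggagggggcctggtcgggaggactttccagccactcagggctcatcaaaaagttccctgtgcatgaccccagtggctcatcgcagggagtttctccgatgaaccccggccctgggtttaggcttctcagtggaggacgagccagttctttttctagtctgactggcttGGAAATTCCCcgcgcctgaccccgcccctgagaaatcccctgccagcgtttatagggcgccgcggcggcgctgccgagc
In Cxcl1 the capitals cover 2 matches that overlap by all but 1 base, one on each strand, at chr5:90891174-90891183 and chr5:90891175-90891184. The match of Il6 lies at chr5:30013070-30013079 and that of Nfkbia at chr12:55492667-55492676. Tnfaip3 held 2 matches in the window at its first start, GGGACACCCC at chr10:19015526-19015535 and GGAAATCCCC at chr10:19015413-19015422, and Csf1 held GGAAAGTCCC at chr3:107760614-107760623. The window of Saa3 held none. A match describes these letters only, and binding of NF-kB was not measured.

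Levels of the 9 genes spanned a wide range. Per kilobase of exon, averaged over all 8 libraries, the order was Csf1 at 20.7 ± 1.63 CPM per kb (SD, n = 8), Nfkbia at 11.8 ± 1.41, Ccl7 at 10.7 ± 1.12, Ccl2 at 8.10 ± 1.53, Cxcl5 at 1.39 ± 0.254, Tnfaip3 at 1.30 ± 0.119, Cxcl1 at 0.916 ± 0.107, Il6 at 0.413 ± 0.0991 and Saa3 at 0.0221 ± 0.0246. The ranges over libraries overlapped between Nfkbia and Ccl7, between Ccl7 and Ccl2 and between Cxcl5 and Tnfaip3, and did not overlap between the other neighbours in this order. Csf1 stood at the percentile 84.6 of all genes tested on this scale and Il6 at the percentile 16.9. The table counts reads on whole genes, so isoforms were not separated.

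**Figure D1:**
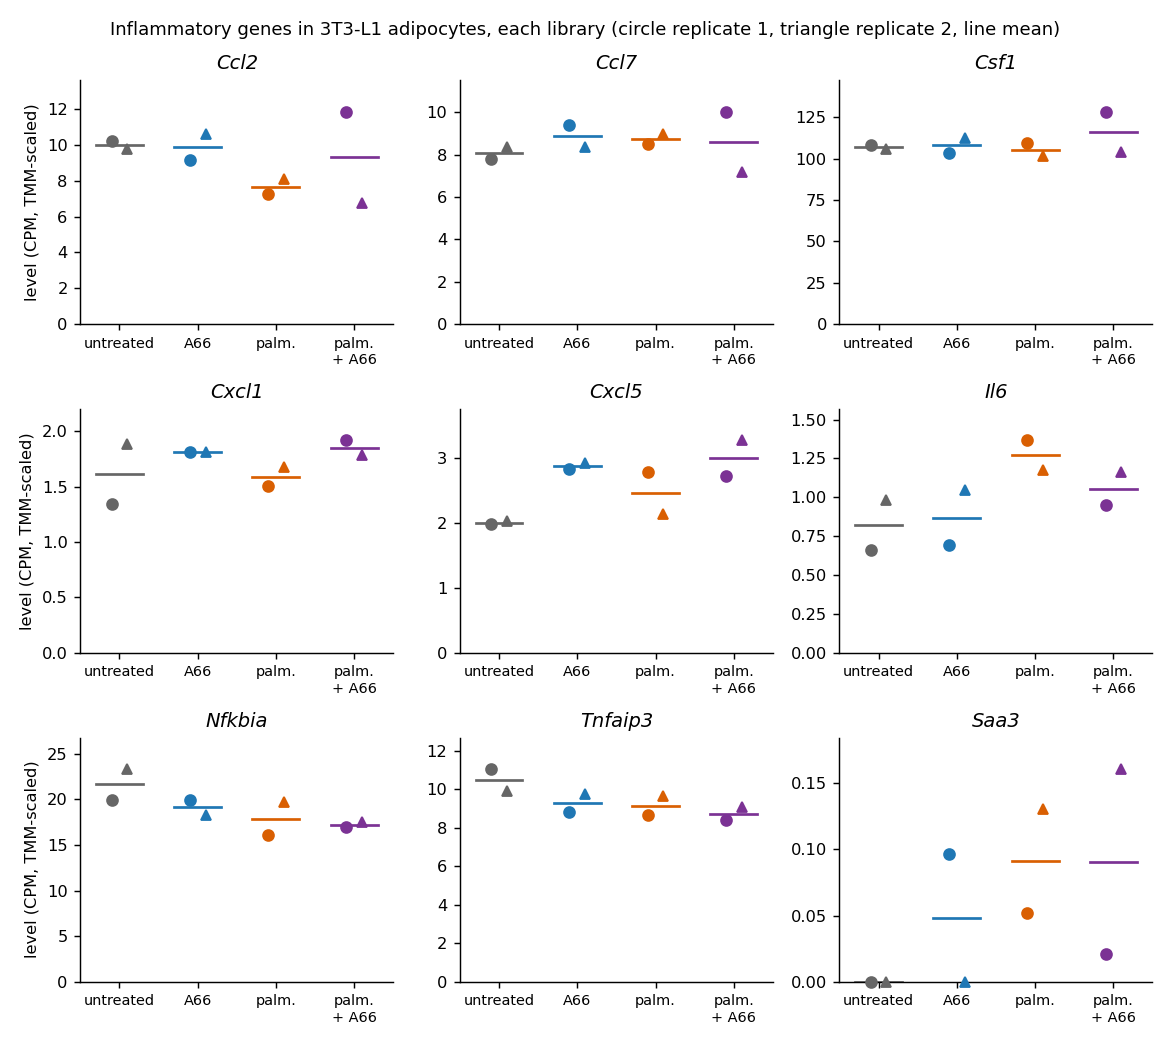
Level of each gene in each library (y axis, CPM after TMM scaling, linear from 0) for the 4 treatment groups (x axis), with a circle for replicate 1, a triangle for replicate 2 and a line for the mean of the group. Ccl2 lies lower in both palmitate libraries, at 7.26 and 8.09 CPM, than in both untreated ones, and the 2 libraries with palmitate plus A66 lie far apart, at 11.9 and 6.78 CPM.

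None of the 8 genes tested was called at an adjusted p under 0.05 in any of the 5 comparisons (edgeR, quasi-likelihood F-test, adjusted over all 14587 genes after Benjamini and Hochberg). The Wald test of DESeq2 called none of them either. Over all genes the calls with palmitate against untreated numbered 92 higher (0.631%) and 79 lower (0.542%). They numbered 116 higher (0.795%) and 93 lower (0.638%) with A66 against untreated. Palmitate plus A66 against palmitate gave 142 higher (0.973%) and 268 lower (1.84%), and palmitate plus A66 against A66 gave 213 higher (1.46%) and 185 lower (1.27%). The interaction of A66 with palmitate was called for 1 gene, Hmox1, in the positive direction (0.00686%) and for 0 in the negative direction (0%). A count of 0 of 8 lies close to these shares and nothing is read from it, and what follows describes the levels and the size of change that the intervals allow.

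The first question was whether the saturated fatty acid raised these genes. Palmitate against untreated gave 3 of the 8 genes for which both palmitate libraries lay above both untreated ones (20.4% of all genes tested) and 3 for which both lay below (20.2%). The genes above were Ccl7, Cxcl5 and Il6, and those below were Ccl2, Nfkbia and Tnfaip3. The median log2 fold change of the 8 was -0.029, against 0.00053 for all genes, and 2 of the 8, Ccl2 and Nfkbia, had an unadjusted p under 0.05, as did 12.02% of all genes.

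Ccl2, which encodes the monocyte attractant MCP-1, had 435 and 528 counts in the untreated libraries, 474 and 498 under A66, 420 and 434 under palmitate and 576 and 338 under the combination. In CPM these were 10.2 and 9.76, 9.15 and 10.6, 7.26 and 8.09, and 11.9 and 6.78. Both palmitate libraries were lower than both untreated ones, while the A66 libraries overlapped with the untreated and the combined treatment spanned the levels of the other groups. With palmitate against untreated the log2 fold change was -0.38 with a standard error of 0.16 (95% interval -0.72 to -0.047, edgeR's unadjusted p = 0.027, adjusted p = 0.32). The upper bound of the interval corresponds to 0.968 of the untreated level. Without the filter on low counts this difference passed the threshold (log2 fold change -0.37, edgeR's adjusted p = 0.047), and over the other alternatives and left-out libraries its adjusted p lay between 0.094 and 0.71.

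Ccl7, which encodes the monocyte attractant MCP-3 and neighbours Ccl2 on chromosome 11, had a flatter profile. Its levels were 7.79 and 8.36 CPM in the untreated libraries, 9.38 and 8.37 under A66, 8.52 and 8.99 under palmitate and 10.0 and 7.19 under the combination. The palmitate libraries were both above the untreated ones by a small margin, with a log2 fold change of 0.11 (95% interval -0.15 to 0.38, edgeR's adjusted p = 0.79). Ccl2 starts at position 82035571 and Ccl7 at 82045712 on GRCm38, both on the plus strand.

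The neutrophil attractants Cxcl1 and Cxcl5 lie on chromosome 5 and were expressed at low levels. Cxcl1, which encodes KC, had 57 and 102 counts in the untreated libraries, 94 and 85 under A66, 87 and 90 under palmitate and 93 and 89 under the combination. The lowest and the highest of its 8 counts were thus both in untreated libraries, which differ in depth. In CPM the untreated libraries stood at 1.34 and 1.89, and the highest level was 1.92, in replicate 1 of the combination. Its log2 fold change with palmitate was -0.037 (95% interval -0.50 to 0.43, edgeR's adjusted p = 0.97), which holds folds from 0.705 to 1.35. Cxcl5, which encodes LIX, had 84 and 110 counts in the untreated libraries, 147 and 137 under A66, 161 and 115 under palmitate and 132 and 163 under the combination. All 6 treated libraries lay above both untreated ones in CPM, which were 1.98 and 2.03 against 2.14 to 3.27. The same untreated libraries stand against every treated group here, and the share of all genes in such an order was not counted. For palmitate against untreated the log2 fold change was 0.30 (95% interval -0.098 to 0.69, edgeR's adjusted p = 0.58). It was 0.095 without the first palmitate library and 0.47 without the second (edgeR's adjusted p = 0.95 and 0.37).

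Il6, the cytokine interleukin-6, had 28 and 53 counts in the untreated libraries, 36 and 49 under A66, 79 and 63 under palmitate and 46 and 58 under the combination. Both palmitate libraries, at 1.37 and 1.17 CPM, were above all other libraries, and the next highest, with the combination, stood at 1.16 CPM. How many of all genes show this order was not counted. The log2 fold change of palmitate against untreated was 0.61 with a standard error of 0.30 (95% interval -0.011 to 1.24, edgeR's unadjusted p = 0.054, adjusted p = 0.43). It was the largest point estimate among the 8 genes in this comparison and also the least precise. Its interval was the only one of the 8 that included a 2-fold rise with palmitate, with an upper bound of 2.36-fold. The value of Il6 was 0.37 without the first untreated library and 0.95 without the second (edgeR's adjusted p = 0.82 and 0.30).

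Saa3, the serum amyloid A gene that adipocytes and macrophages express in inflammation, was near the floor of detection. It had 0 and 0 counts in the untreated libraries, 5 and 0 under A66, 3 and 7 under palmitate and 1 and 8 under the combination. Counts appeared in both libraries of each palmitate group and in 1 of 2 with A66, and the libraries of 1 group differed as much as the groups. When genes of all levels were kept, edgeR's unadjusted p for palmitate against untreated was 0.016 and its adjusted p 0.31, and over the other comparisons the adjusted p was at least 0.61.

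Csf1, the macrophage growth factor, was the most abundant of the 9 genes. Its levels were 108 and 106 CPM in the untreated libraries, 103 and 113 under A66, 109 and 101 under palmitate and 128 and 104 under the combination. The log2 fold change with palmitate was -0.022 (95% interval -0.16 to 0.11, edgeR's adjusted p = 0.93), which holds folds from 0.895 to 1.08 and is the narrowest interval of the 8.

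The inhibitors Nfkbia and Tnfaip3 were lower in both palmitate libraries than in both untreated ones. Nfkbia had 849 and 1260 counts in the untreated libraries, 1031 and 861 under A66, 932 and 1057 under palmitate and 822 and 875 under the combination, which were 19.99 and 23.3, 19.9 and 18.3, 16.1 and 19.7, and 16.9 and 17.6 CPM. Its log2 fold change with palmitate was -0.28 with a standard error of 0.092 (95% interval -0.47 to -0.088, edgeR's unadjusted p = 0.0062, adjusted p = 0.17). When the second palmitate library was left out, the value was -0.43 and passed the threshold (edgeR's adjusted p = 0.026), with the remaining palmitate library assumed to vary like the other groups. Without the first palmitate library the value was -0.14 (edgeR's adjusted p = 0.75) and without the second untreated library -0.16 (edgeR's adjusted p = 0.58). Over all alternatives and left-out libraries other than the second of palmitate, the adjusted p of Nfkbia was at least 0.059. Tnfaip3 had 11.04 and 9.91 CPM in the untreated libraries, 8.80 and 9.76 under A66, 8.66 and 9.66 under palmitate and 8.41 and 9.07 under the combination. Its untreated libraries were the highest of the 8, an order whose share over all genes was not counted. The log2 fold change of Tnfaip3 with palmitate was -0.19 (95% interval -0.41 to 0.027, edgeR's adjusted p = 0.49).

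**Figure D2:**
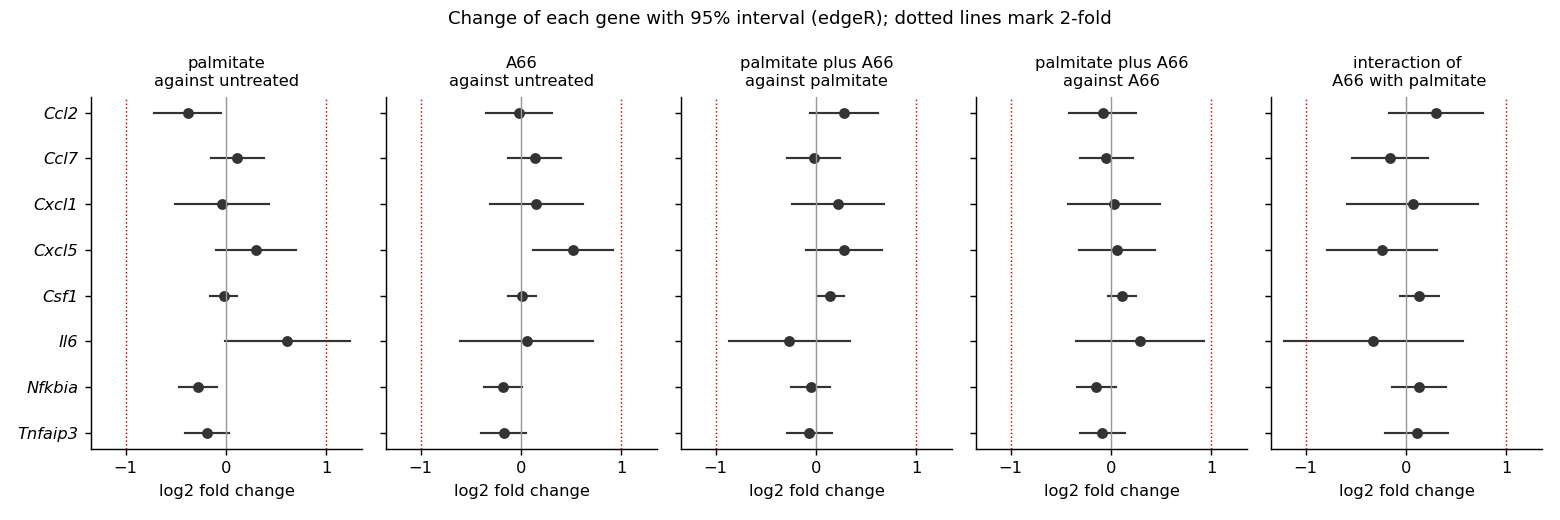
Log2 fold change (x axis, edgeR's fit on all 8 libraries) of the 8 genes past the filter on low counts (y axis), with 95% intervals, in the 5 comparisons, and with dotted lines at 2-fold lower and higher. Most intervals cross 0, and with palmitate against untreated only that of Il6, up to 2.36-fold, reaches a 2-fold rise.

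The second question was whether inhibition of p110α changed these genes in cells without palmitate. This comparison shares its 2 untreated libraries with that of palmitate. Between A66 and untreated cells, the A66 libraries were both higher than either untreated one for 2 of the 8 genes, Ccl7 and Cxcl5 (20.3% of all genes), and both lower for 2, Nfkbia and Tnfaip3 (22.1% of all genes). The median log2 fold change of the 8 was 0.036, against -0.0040 for all genes, and 1 of the 8, Cxcl5, had an unadjusted p under 0.05, as did 11.96% of all genes. Cxcl5 was at 2.84 and 2.92 CPM with A66, and its log2 fold change was 0.52 with a standard error of 0.19 (95% interval 0.12 to 0.91, edgeR's unadjusted p = 0.012, adjusted p = 0.24). Its adjusted p remained above the threshold in all alternatives and left-out libraries, between 0.15 and 0.58. Nfkbia differed by -0.18 (95% interval -0.37 to 0.010) and Tnfaip3 by -0.17 (95% interval -0.39 to 0.048) on the log2 scale. Ccl2 differed by -0.018 (95% interval -0.35 to 0.31) and Csf1 by 0.013 (95% interval -0.12 to 0.15). The interval of Il6 was wide, from -0.60 to 0.72, around a log2 fold change of 0.059. Cxcl1 had a log2 fold change of 0.15 (95% interval -0.31 to 0.62) and Ccl7 one of 0.14 (95% interval -0.13 to 0.40).

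The third question was whether A66 altered these genes in cells that also received palmitate. For palmitate plus A66 against palmitate the median log2 fold change of the 8 genes was 0.059, against -0.00079 for all genes, and 1 of the 8, Csf1, had an unadjusted p under 0.05, as did 14.4% of all genes. Csf1 differed by 0.14 with a standard error of 0.066 (95% interval 0.0060 to 0.28, edgeR's unadjusted p = 0.042, adjusted p = 0.32), while 1 of its 2 libraries with the combination lay between the palmitate libraries. Ccl2 differed by 0.28 (95% interval -0.055 to 0.62, edgeR's adjusted p = 0.46). For 1 of the 8, Il6, both libraries with the combination lay below both with palmitate (22.4% of all genes), with a log2 fold change of -0.27 (95% interval -0.87 to 0.34). For 1, Cxcl1, they lay above (21.9% of all genes), with 0.22 (95% interval -0.24 to 0.68). Cxcl5 differed by 0.28 (95% interval -0.097 to 0.66), and Ccl7, Nfkbia and Tnfaip3 by between -0.066 and -0.024. The interval that extended furthest upward in this comparison, that of Cxcl1, ended at 1.60-fold.

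The 2 libraries given palmitate plus A66 differed from each other by more than the libraries of any other group in 3 of the secreted factors. Replicate 1 over replicate 2 was 1.75-fold for Ccl2, 1.40-fold for Ccl7 and 1.23-fold for Csf1, whereas the corresponding ratios of the higher to the lower library within each of the other 3 groups were at most 1.16 for Ccl2, 1.12 for Ccl7 and 1.09 for Csf1. Il6 and Cxcl5 were higher in replicate 2 of the combination, by 1.228-fold and 1.203-fold, ratios that were exceeded within other groups, where they reached 1.502 for Il6 and 1.298 for Cxcl5. For all 3 this ratio between replicates exceeded the ratio of the highest to the lowest group mean, which was 1.30 for Ccl2, 1.099 for Ccl7 and 1.104 for Csf1. Without replicate 2 of the combination, Ccl2 was higher with palmitate plus A66 than with palmitate by 0.63 on the log2 scale (edgeR's adjusted p = 0.010) and Csf1 by 0.29 (edgeR's adjusted p = 0.011). Without replicate 1 the signs turned, to -0.18 for Ccl2 and -0.016 for Csf1. In these fits the single remaining library is assumed to vary like the other groups. The ratio between replicates had a median over the 8 genes of 1.09 in the untreated group, 1.10 under A66, 1.12 under palmitate and 1.22 under the combination.

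For palmitate plus A66 against A66, the median log2 fold change of the 8 genes was -0.0085, against 0.00044 for all genes, and none of the 8 had an unadjusted p under 0.05, whereas 14.6% of all genes did. The values ran from -0.15 for Nfkbia (95% interval -0.34 to 0.045) to 0.29 for Il6 (95% interval -0.35 to 0.93). Csf1 differed by 0.11 (95% interval -0.030 to 0.24), and passed the threshold when replicate 2 of the combination was left out (0.25, edgeR's adjusted p = 0.021). The interaction asks whether the effect of A66 differs with and without palmitate. It had an unadjusted p under 0.05 for none of the 8 genes and for 7.92% of all genes, and its median was 0.086 against 0.0021 for all genes. The intervals of the interaction were wide, from -0.17 to 0.77 for Ccl2 and from -1.22 to 0.57 for Il6, and narrower for Csf1, from -0.064 to 0.32.

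Other genes of the pathway were examined in lists by role. Of 31 other chemokines 13 passed the filter. With palmitate against untreated none was called lower (0.542% of all genes) and 1 was called higher (0.631%). This was Ccl9, a chemokine of myeloid cells, at 3.74 and 3.14 CPM in the untreated libraries, 4.69 and 4.28 under A66, 5.06 and 5.16 under palmitate and 6.33 and 6.44 under the combination. The order of the groups was free of overlap, and how many of all genes show this was not counted. The log2 fold change of Ccl9 was 0.58 with palmitate against untreated (95% interval 0.29 to 0.86, edgeR's adjusted p = 0.037). It was 0.51 with the combination against A66 (95% interval 0.23 to 0.78, edgeR's adjusted p = 0.036). Both calls were lost with DESeq2 (the first also with the 4 libraries compared alone) and on leaving out any library of the groups compared, with adjusted p up to 0.23. The median log2 fold change of the 13 with palmitate against untreated was 0.25, against 0.00053 for all genes. In that comparison 4 of the 13 had an unadjusted p under 0.05, as did 12.02% of all genes. The median was -0.081 with the combination against A66 and -0.24 with the combination against palmitate. Some of the 13 had few counts, such as Ccl17 with 1 and 5 and Cxcl9 with 9 and 2 in the untreated libraries. Cxcl10, an interferon-inducible chemokine, had 3 and 6 counts in the untreated libraries, 5 and 7 under A66, 12 and 16 under palmitate and 3 and 2 under the combination. Its highest counts were those with palmitate, and the difference did not pass the test against untreated (edgeR's adjusted p = 0.41) nor for the combination against palmitate (edgeR's adjusted p = 0.13). Cxcl12, a homeostatic chemokine, stood at 212 to 257 CPM, and its log2 fold change with palmitate was 0.13 (95% interval 0.021 to 0.23, edgeR's adjusted p = 0.29). Cxcl2 had 1 count in each of 2 libraries and 0 in the other 6.

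Of 25 other cytokines 12 passed the filter, and edgeR and DESeq2 called none of them in any of the 5 comparisons. In each comparison 0 to 2 had an unadjusted p under 0.05 (7.92% to 14.6% of all genes). The median log2 fold change was -0.031 for palmitate against untreated. The inducing cytokines Tnf and Il1b were at 0 counts in all 8 libraries, which at this depth allows a level of up to 0.0710 CPM in the smallest library. Of 11 receptors for the ligands on the list, 5 were at 0 counts in all libraries, among them Ccr2, the receptor of Ccl2 on monocytes, and 3 passed the filter. These 3 were Il6ra and Il6st, the chains of the interleukin-6 receptor, and Csf1r, the receptor of Csf1, which had 6 to 15 counts per library. None of the 3 was called by edgeR, with 0 or 1 at an unadjusted p under 0.05 in each comparison (7.92% to 14.6% of all genes). DESeq2 called Il6st higher with the combination than with palmitate and than with A66.

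Upstream of NF-kB, 26 of 30 receptors and adaptors passed the filter, and with palmitate against untreated edgeR and DESeq2 called none. Their median log2 fold change was 0.016, and 2 had an unadjusted p under 0.05 (12.02% of all genes). With A66 against untreated, edgeR called 1 of the 26 higher (0.795% of all genes) and 1 lower (0.638%). In that comparison 3 had an unadjusted p under 0.05 (11.96% of all genes). With the combination against palmitate it called 1 higher (0.973%) and 1 lower (1.84%), with 6 at an unadjusted p under 0.05 (14.4%). The lipopolysaccharide receptor Tlr4 was at 81.6 and 81.4 CPM in untreated cells and 79.2 and 79.0 with palmitate, against 91.2 and 94.2 with A66 and 92.8 and 93.0 with the combination. All 4 libraries with A66 were thus above all 4 without it, an order whose share over all genes was not counted. The log2 fold change was 0.19 for A66 against untreated (95% interval 0.099 to 0.27, edgeR's adjusted p = 0.024) and 0.23 for the combination against palmitate (95% interval 0.15 to 0.32, edgeR's adjusted p = 0.0026). The second call held in all 7 alternatives and on leaving out each of the 8 libraries, whereas the first was lost on leaving out any library of the groups compared, with an adjusted p of up to 0.26. Il1rap, the accessory chain of the interleukin-1 receptor, was lower with A66, at 68.6 and 65.3 CPM in the untreated libraries, 58.2 and 58.1 under A66, 72.9 and 67.7 under palmitate and 60.5 and 60.9 under the combination. Its log2 fold change was -0.20 for A66 against untreated (edgeR's adjusted p = 0.037) and -0.21 for the combination against palmitate (edgeR's adjusted p = 0.015). Each of these 2 calls of Il1rap was lost on leaving out any of 3 of the 4 libraries compared (adjusted p up to 0.29 and 0.16).

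**Figure D3:**
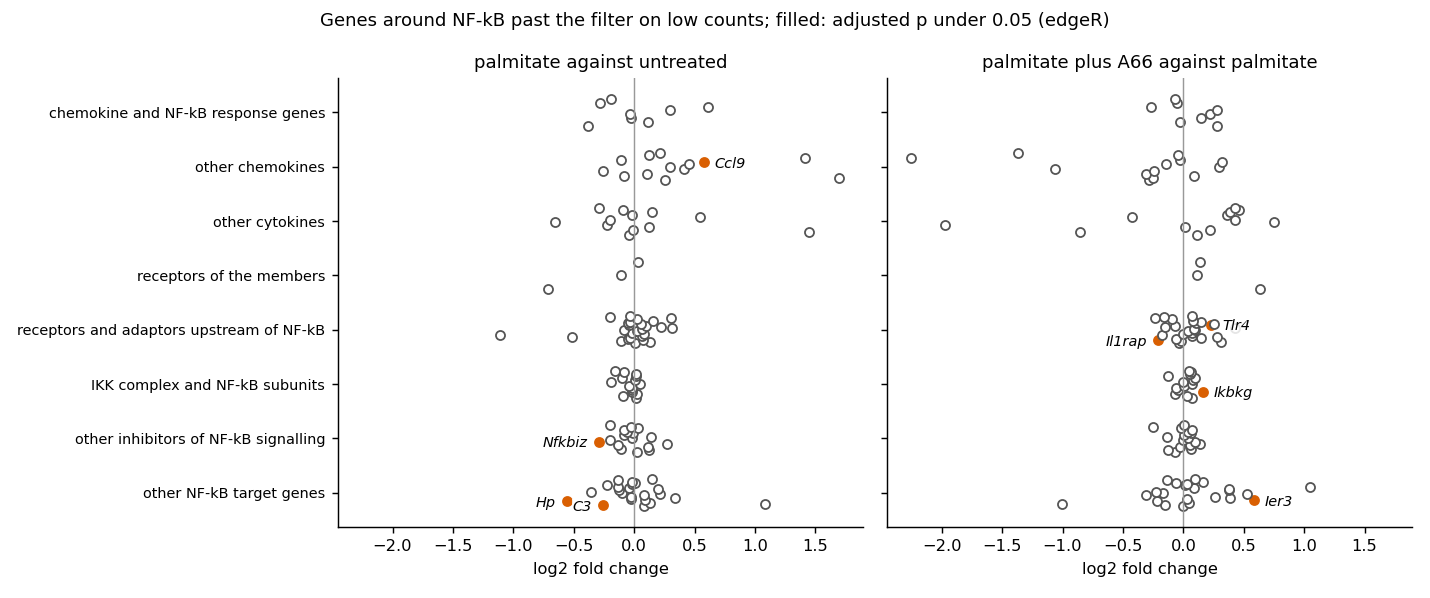
Log2 fold change (x axis) of each gene past the filter on low counts, by list (y axis), with palmitate against untreated (left) and with palmitate plus A66 against palmitate (right), where filled circles are genes called at an adjusted p under 0.05. With palmitate the 4 called genes are Ccl9 at 0.58, Nfkbiz at -0.29, Hp at -0.56 and C3 at -0.26.

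All 15 genes of the IKK complex and the NF-kB subunits passed the filter. Their log2 fold changes with palmitate against untreated lay between -0.19 and 0.052, with a median of -0.015. None was called by edgeR or DESeq2, and 1 had an unadjusted p under 0.05 (12.02% of all genes). Rela, the p65 subunit, stood at 65.7 and 64.2 CPM in untreated cells and 62.3 and 68.4 with palmitate (log2 fold change 0.0086, 95% interval -0.098 to 0.12). Nfkb1, the gene of p105 and p50, differed by -0.042 (95% interval -0.15 to 0.068). Ikbkg, the regulatory subunit NEMO, was called higher with the combination than with palmitate, by 0.16 on the log2 scale (edgeR's adjusted p = 0.030). It was the 1 higher call of the 15 there (0.973% of all genes), with none lower (1.84%). In that comparison 1 of the 15 had an unadjusted p under 0.05 (14.4% of all genes). The call of Ikbkg was lost with scaling by library size and on leaving out any library with palmitate or A66.

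Of 20 other inhibitors of NF-kB signalling 17 passed the filter. With palmitate 5 had an unadjusted p under 0.05 (12.02% of all genes), with a median log2 fold change of -0.026. None was called higher (0.631% of all genes) and 1 was called lower (0.542%). This was Nfkbiz, which encodes the nuclear protein IκBζ and is itself induced by NF-kB. It stands in this list as a member of the IκB family, and whether it acts as an inhibitor here was not tested. Its levels were 27.1 and 26.8 CPM in the untreated libraries, 24.3 and 26.0 under A66, 21.5 and 22.4 under palmitate and 24.4 and 22.7 under the combination. The palmitate libraries were the lowest, an order whose share over all genes was not counted. The log2 fold change against untreated was -0.29 (95% interval -0.43 to -0.16, edgeR's adjusted p = 0.029). The call was lost in the 4 libraries alone and on leaving out either untreated library or the first palmitate library, with an adjusted p of up to 0.26.

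Among 32 other NF-kB target genes 23 passed the filter. With palmitate 3 had an unadjusted p under 0.05 (12.02% of all genes), with a median log2 fold change of -0.021. Palmitate gave 0 higher calls (0.631% of all genes) and 2 lower calls (0.542%). Both were secreted proteins of the acute phase. Hp, the haemoglobin scavenger haptoglobin, was at 145 and 168 CPM in the untreated libraries, 107 and 110 under A66, 96.1 and 117 under palmitate and 96.6 and 86.3 under the combination. Each treated library was below both untreated ones, the same 2 libraries serving as control for palmitate and for A66. The share of all genes in this order was not counted. The log2 fold change was -0.56 with palmitate (95% interval -0.71 to -0.41, edgeR's adjusted p = 5.1e-05) and -0.53 with A66 (95% interval -0.68 to -0.38, edgeR's adjusted p = 0.00024), and both calls held in all 7 alternatives and without each of the 8 libraries. C3, complement component 3, was at 1667 and 1619 CPM in the untreated libraries, 1442 and 1361 under A66, 1348 and 1398 under palmitate and 1210 and 1264 under the combination. Its log2 fold change was -0.26 with palmitate (edgeR's adjusted p = 0.0019), which held in all 7 alternatives and without each library. It was -0.23 with A66 (edgeR's adjusted p = 0.0063) and -0.18 with the combination against A66 (edgeR's adjusted p = 0.021), calls that were each lost on leaving out either of 2 libraries (adjusted p up to 0.19 and 0.43).

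**Figure D4:**
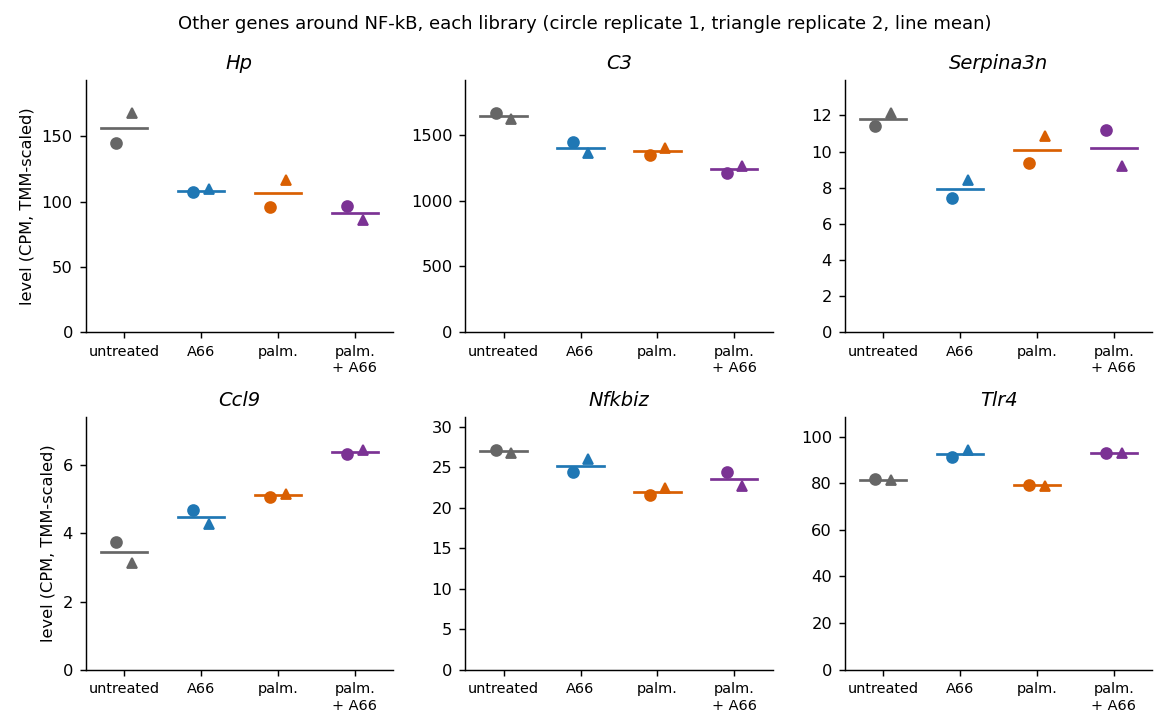
Level of 6 other genes around NF-kB in each library (y axis, CPM after TMM scaling, linear from 0) by treatment group (x axis), with a circle for replicate 1, a triangle for replicate 2 and a line for the mean. Hp and C3 lie below both untreated libraries in all 6 treated ones, Tlr4 is higher in the 4 libraries with A66, and Ccl9 is highest with the combination, at 6.33 and 6.44 CPM.

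With A66 against untreated, 1 of the 23 targets was called higher and 3 lower, by edgeR and by DESeq2 alike. Over all genes edgeR called 0.795% higher and 0.638% lower. Of the 23 targets, 6 had an unadjusted p under 0.05 (11.96% of all genes). Vcam1, an adhesion molecule for leukocytes, was higher by 0.20 (95% interval 0.10 to 0.30, edgeR's adjusted p = 0.028), a call lost with scaling by library size and without any of the libraries compared (adjusted p up to 0.29). Beside Hp and C3, Serpina3n, a protease inhibitor of the acute phase named here after its values were seen, was called lower. Its levels were 11.4 and 12.1 CPM in the untreated libraries, 7.41 and 8.44 under A66, 9.35 and 10.9 under palmitate and 11.2 and 9.21 under the combination. Beyond DESeq2, how the call of Serpina3n fares in the alternatives and left-out libraries is not given here. With the combination against palmitate 8 of the 23 had an unadjusted p under 0.05 (14.4% of all genes). In this comparison edgeR called 1 higher (0.973% of all genes) and none lower (1.84%), whereas DESeq2 called 2, the second being C3, lower. The target called by both was Ier3, an early response gene, at 7.73 ± 0.604 CPM (SD, n = 2) against 5.17 ± 0.028 (log2 fold change 0.58, edgeR's adjusted p = 0.012). Against A66 the combination gave 10 of the 23 at an unadjusted p under 0.05 (14.6% of all genes). Each tool gave 1 higher call and 1 lower, the lower being C3, where edgeR called 1.46% of all genes higher and 1.27% lower. The higher was Ptgs2, the cyclooxygenase COX-2, at 9.49 ± 0.953 CPM against 6.87 ± 0.066 (log2 fold change 0.47, edgeR's adjusted p = 0.035). Each of the calls of Ier3 and Ptgs2 was lost on leaving out any of 3 of the 4 libraries compared (adjusted p up to 0.14 for Ier3 and 0.36 for Ptgs2). Icam1, a classical target, had at most 2 counts in a library. Lcn2, lipocalin 2, was at 1.84 and 2.59 CPM in untreated cells and 3.03 and 2.61 with palmitate, and was not called in any comparison (edgeR's adjusted p at least 0.14).

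Genes that respond to fatty acids through PPARs were counted in the same libraries. Of 14 such genes, all past the filter, edgeR called none with palmitate against untreated, with 2 at an unadjusted p under 0.05 (12.02% of all genes). Their log2 fold changes with palmitate ran from -0.37 to 0.17, with a median of -0.041, against 0.00053 for all genes. DESeq2 called Plin2, a lipid droplet protein, higher in this comparison. It also called Plin2 higher with the combination against palmitate, where edgeR called none, and against A66. With the combination against A66, DESeq2 called Acadvl lower as well. Plin2 was at 209 and 226 CPM in untreated cells and 242 and 248 with palmitate. It rose with the combination against A66 by 0.21 on the log2 scale (edgeR's adjusted p = 0.0074). There it was the 1 gene of the 14 that edgeR called (1.46% of all genes called higher), and the median of the 14 was -0.034. The call was lost on leaving out any of 3 of the 4 libraries compared. Of the 12 adipocyte markers none was called by edgeR or DESeq2 with palmitate or with A66 against untreated. In each, 3 had an unadjusted p under 0.05 (12.02% of all genes with palmitate and 11.96% with A66). With the combination against palmitate, edgeR called 3 of the 12 lower (1.84% of all genes), namely Cidec, Retn and Slc2a4. The median log2 fold change of the list was -0.15. DESeq2 called Retn and Slc2a4, and edgeR's call of Slc2a4 was lost without palmitate replicate 2 and without replicate 1 of the combination (adjusted p up to 0.20). With the combination against A66, edgeR called 8 of the 12 lower (1.27% of all genes) and DESeq2 4, with a median of -0.25. Retn, the adipocyte hormone resistin, had a log2 fold change of -0.32 in both comparisons (edgeR's adjusted p = 0.00051 against palmitate and 0.00030 against A66), and both calls held in all 7 alternatives and without each of the 8 libraries. Also called against A66 was Adipoq, the adipocyte hormone adiponectin, with a log2 fold change of -0.24 (edgeR's adjusted p = 0.0033, lost on leaving out the first library of either group, with an adjusted p of up to 0.16). Of the 14 macrophage markers 4 passed the filter. With the combination against A66, edgeR called 1 of the 4 higher (1.46% of all genes) and none lower, with log2 fold changes from -0.32 to 0.91. Against palmitate it called none, with 3 at an unadjusted p under 0.05 (14.4% of all genes) and values from -0.50 to 0.63. Cd68, a lysosomal protein counted among the macrophage markers, was at 2.57 and 3.42 CPM in the untreated libraries, 2.65 and 3.28 under A66, 4.20 and 3.86 under palmitate and 5.40 and 5.74 under the combination. It was called higher with the combination against A66 (log2 fold change 0.91, edgeR's adjusted p = 0.0014, lost on leaving out the first A66 library at an adjusted p of 0.068). Of the preadipocyte markers 8 passed the filter, and edgeR called none of them in any of the 5 comparisons. In each comparison 1 to 3 of the 8 had an unadjusted p under 0.05 (7.92% to 14.6% of all genes). DESeq2 called 1 of them, Ly6a, higher with the combination against palmitate. The part of these markers in the values of Ccl2, Csf1 and Ccl9 was not tested, and in bulk RNA fewer cells of a type and less RNA per cell cannot be told apart.

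Genes with the profile most like that of 3 of the chemokine and NF-kB response genes over the 8 libraries were found by the root mean square difference of centred log2 CPM. For Ccl2, whose own deviation was 0.26, the 3 closest of all genes tested were Nrm, 5830454E08Rik and E130317F20Rik, with differences of 0.11 to 0.12 against a median of 0.28 over all genes. For Cxcl1 they were Cdca8, Tcea2 and Il3ra, with differences of 0.049 to 0.061, and for Nfkbia they were Inha, Col5a3 and Zfp93, with differences of 0.043 to 0.056. None of the 9 genes themselves was among them, and with 8 libraries these likenesses are a description only.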

How the data were processed

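RNA-seq was performed for the authors by a university genomics core, on poly(A) RNA with a strand-marking kit. Per the methods and the submitters' processing notes, reads were aligned to GRCm38 with TopHat2 2.0.11 and counted per Ensembl gene with HTSeq, and the authors deposited raw counts for the 8 libraries. The annotation and the strand setting of the counting are not given in the sources used here. The same table holds 6 columns of the authors' own DESeq2 comparison (mean, fold change and its error, statistic and p-values), which were not used. The treatment label of each sample gave its group. Symbols, coordinates and exon lengths were taken from GENCODE M21 (GRCm38), which matched 42548 of 43629 genes.

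From the counts, edgeR 4.0.16 (R 4.3.3) was run with TMM normalization, the filterByExpr filter with a minimum count of 10, and quasi-likelihood tests in 1 fit on all 8 libraries with a mean for each group. Benjamini-Hochberg adjustment was made over 14587 genes with a threshold of 0.05. The authors' tool, DESeq2 (here 1.42.0), was run among the alternatives. TMM factors lay between 0.982 and 1.01. The 95% intervals come from the quasi-likelihood standard errors. Levels are CPM with TMM scaling. Between replicates the chi-square per gene averaged 6.15 to 8.99, where counting noise alone gives 1. The scripts were tested on simulated data, in which small changes of genes at low levels were mostly missed, so that for Cxcl1, Cxcl5 and Il6 the intervals carry more than the absence of a call. With 2 libraries in each group no exact permutation test could reach the threshold, and none was run.

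The 9 genes and the pathway lists were chosen with earlier results of these data known. From each list, the 2 genes with the smallest p among those called in each direction were named, beside Rela, Nfkb1, Tlr4, Tnf, Il1b, Cxcl2, Cxcl10, Cxcl12, Icam1, Lcn2 and marker genes. Not every gene so named is described. The alternatives were RLE and library-size scaling, DESeq2, no filter, at least 10 counts in every library, a replicate block, the 4 libraries compared alone, and leaving out each library.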

Additional observations from a re-analysis of the deposited data

How the results depend on the processing

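None of the 8 tested genes was called under RLE normalization, scaling by library size, the Wald test of DESeq2, a minimum of 10 counts in every library, the replicate block or a fit on the 4 libraries compared. Without the filter on low counts 1 was called, Ccl2 with palmitate against untreated, and the calls over all genes rose to 396 for palmitate against untreated, 403 for A66 against untreated, 652 for palmitate plus A66 against palmitate, 664 for palmitate plus A66 against A66 and 91 for the interaction. For the interaction, library size gave 2 calls, DESeq2 21 and the replicate block 3. Leaving out each library in turn gave 0 to 1 of the 8 genes called with palmitate against untreated, 0 to 2 with the combination against palmitate and 0 to 1 with the combination against A66. Over all genes it gave 71 to 245 calls for palmitate against untreated (fewest without palmitate replicate 1), 42 to 268 for A66 against untreated (without A66 replicate 1), 147 to 494 for the combination against palmitate (without palmitate replicate 2), 107 to 502 for the combination against A66 (without A66 replicate 1) and 0 to 10 for the interaction.

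Signs of the 8 genes turned only on leaving out a library, and no such value was called, the cause not being tested. Ranges of the log2 fold change over the left-out libraries follow for genes whose sign turned or whose value moved by over 1.5 times. For palmitate against untreated these were Ccl7 from 0.066 to 0.17, Cxcl1 from -0.25 to 0.24, Cxcl5 from 0.095 to 0.47, Il6 from 0.37 to 0.95, Nfkbia from -0.43 to -0.14, Tnfaip3 from -0.27 to -0.11 and Csf1 from -0.077 to 0.032. For A66 against untreated these were Ccl2 from -0.13 to 0.090, Ccl7 from 0.054 to 0.21, Cxcl1 from -0.057 to 0.43, Il6 from -0.26 to 0.39, Nfkbia from -0.28 to -0.063, Tnfaip3 from -0.25 to -0.10 and Csf1 from -0.051 to 0.078. For palmitate plus A66 against palmitate these were Ccl2 from -0.18 to 0.63, Ccl7 from -0.28 to 0.20, Cxcl1 from 0.14 to 0.30, Cxcl5 from 0.11 to 0.48, Il6 from -0.42 to -0.13, Nfkbia from -0.19 to 0.10, Tnfaip3 from -0.14 to 0.014 and Csf1 from -0.016 to 0.29. For palmitate plus A66 against A66 these were Ccl2 from -0.54 to 0.27, Ccl7 from -0.31 to 0.17, Cxcl1 from -0.021 to 0.079, Cxcl5 from -0.082 to 0.19, Il6 from 0.017 to 0.60, Nfkbia from -0.21 to -0.089, Tnfaip3 from -0.16 to -0.011 and Csf1 from -0.052 to 0.25. For the interaction of A66 with palmitate these were Ccl2 from -0.16 to 0.65, Ccl7 from -0.42 to 0.062, Cxcl1 from -0.21 to 0.28, Cxcl5 from -0.41 to -0.036, Il6 from -0.66 to -0.012, Nfkbia from -0.010 to 0.28, Tnfaip3 from 0.029 to 0.19 and Csf1 from -0.032 to 0.27.

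Scaling by library size changed the split of calls, from 92 higher and 79 lower to 83 and 105 for palmitate against untreated, from 116 and 93 to 84 and 108 for A66 against untreated, from 142 and 268 to 107 and 350 for the combination against palmitate, and from 213 and 185 to 180 and 266 for the combination against A66. The labels and methods name no pairing by replicate number, and the correlation of deviations between same-numbered libraries ran from -0.15 to 0.15 over 8956 genes, so the numbers were not taken as pairs. Under the replicate block the calls were 195, 225, 448, 438 and 3 in the order of comparisons above, and none of the 8 genes was called. For the combination against A66 the 4 libraries alone gave 689 calls, and in fits chosen after seeing the data the labelled block gave 760 and crossed numbers 1371. Depth limits Saa3, Il6 and Cxcl1, with at most 8, 79 and 102 counts in a library.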
